A study of Mus musculus with 6 samples.

Results

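The high mobility group (HMG) genes measured here are Hmgb2, its paralogs Hmgb1, Hmgb3 and Hmgb4, the nucleosome-binding genes Hmgn1, Hmgn2, Hmgn3 and Hmgn5, and Hmga2. They were chosen by gene symbol, and they make up 9 of the 19505 genes with a symbol on the array, with 1 row of values each. The livers came from male C57BL/6 mice aged 8 weeks, 3 of genotype WT and 3 of genotype HMGB2-KO, in which Hmgb2 was knocked out. Total RNA of each liver was read on 1 Clariom S mouse array, a single-colour array of short probes, and the labels name no treatment, surgery or transgene. The sources used here do not give how the knockout was made, in which cells it acts or which exons it removes. The study screened for genes related to HMGB2 expression, and its title concerns liver regeneration.

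HMG proteins are small, abundant chromatin proteins that bind DNA or nucleosomes with little regard to sequence and change how chromatin bends or opens. HMGB proteins carry HMG boxes that bend DNA and, in most members, an acidic tail. HMGN proteins bind the nucleosome core, and HMGA proteins bind AT-rich DNA through AT hooks. Several of these genes are most active in embryonic or dividing cells and are low in resting adult liver.

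The stretch before the gene start is printed for Hmgb2, the gene that was knocked out, and for its paralogs Hmgb1 and Hmgb3, so that the sequences can be set beside the transcript values. Of the 9 genes, 8 had an entry in the promoter table of RefSeq, on build GRCm38.p6, and Hmgb1 had 2 starts there. Each line gives the 250 bases just before the start, read 5′ to 3′ along the gene, with capitals marking matches on either strand to 4 motifs. These motifs are CCAAT, bound by the factor NF-Y, TTTGAA, the core of an element found in genes of the cell cycle, GGGCGG, the GC box, and TATAAA, the TATA box. Hmgb2 lies on the plus strand (chr8:57511593-57511842), Hmgb1 on the minus strand (chr5:149053058-149053307 and chr5:149051617-149051866) and Hmgb3 on the plus strand (chrX:71555667-71555916).
Hmgb2: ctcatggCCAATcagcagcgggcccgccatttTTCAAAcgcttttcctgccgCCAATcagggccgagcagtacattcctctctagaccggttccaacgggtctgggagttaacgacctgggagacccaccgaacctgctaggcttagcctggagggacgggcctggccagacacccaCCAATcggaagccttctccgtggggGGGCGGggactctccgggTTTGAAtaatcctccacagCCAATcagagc
Hmgb1, upstream start: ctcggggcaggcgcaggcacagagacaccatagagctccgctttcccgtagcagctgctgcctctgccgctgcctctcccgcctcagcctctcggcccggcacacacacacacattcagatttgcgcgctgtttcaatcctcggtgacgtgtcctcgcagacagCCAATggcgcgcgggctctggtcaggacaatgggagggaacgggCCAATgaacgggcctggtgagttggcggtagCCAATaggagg
Hmgb1, downstream start: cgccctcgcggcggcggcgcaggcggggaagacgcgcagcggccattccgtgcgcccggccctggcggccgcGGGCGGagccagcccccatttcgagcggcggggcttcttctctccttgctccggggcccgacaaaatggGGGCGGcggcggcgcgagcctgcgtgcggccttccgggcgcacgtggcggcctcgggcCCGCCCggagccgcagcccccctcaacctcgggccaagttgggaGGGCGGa
Hmgb3: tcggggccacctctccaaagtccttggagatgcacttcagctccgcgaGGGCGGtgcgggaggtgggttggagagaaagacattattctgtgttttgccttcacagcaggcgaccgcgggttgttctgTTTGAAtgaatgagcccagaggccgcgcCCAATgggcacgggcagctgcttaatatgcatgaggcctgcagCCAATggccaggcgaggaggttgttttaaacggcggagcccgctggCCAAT

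The Hmgb2 stretch held 4 CCAAT motifs, 2 TTTGAA motifs and 1 GC box. Its CCAAT motifs began 243, 198, 73 and 11 bases before the start. The upstream stretch of Hmgb1 and that of Hmgb3 held 3 CCAAT motifs each, and the downstream stretch of Hmgb1 held 0 CCAAT motifs and 4 GC boxes. TTTGAA was found once in the Hmgb3 stretch. Of 32851 stretches of the same length in the table, 33.8% held a CCAAT motif, 2.79% held at least 3 and 0.840% at least 4. TTTGAA was in 16.0% of them, the GC box in 32.7% and TATAAA, which none of the 4 printed stretches holds, in 12.4%. The motifs do not overlap each other in the printed stretches, and a match is a description of the letters, not of a bound site.

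A value below is the log2 difference of a gene from a baseline of its own row, with arrays first centred on their medians over all rows. The baseline is not stated. In 24.2% of all rows 2 of the 6 livers have exactly opposite deposited values (to within 1e-06), so there the baseline lies midway between those livers. Values can therefore be compared between livers within a gene, but no gene's abundance can be read from them, nor can 1 gene's level be set against another's. Whether a gene is read above background, and whether markers of a cell type are absent, cannot be told from such values. The array of WT replicate 2 stood apart, with a median of 0.26 over all rows before centring, where the other arrays had -0.05 to 0.01. Rows of olfactory, vomeronasal and taste receptors, 1469 in all and mostly silent in liver, had a centred median of 0.29 there and of -0.07 to 0.00 elsewhere. Plasma protein rows, 21 in all, had a centred median of -0.25 there and of -0.00 to 0.04 elsewhere. Before centring, their median was 0.01 there and -0.04 to 0.01 elsewhere. The low centred value thus comes from subtracting the array median. With 3 arrays per group, their number limits the precision.

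Hmgb2 checks the genotype labels. The WT livers, in the order of replicates 1 to 3 used throughout, were at 0.47, 0.36 and 0.42, and the HMGB2-KO livers were at -0.66, -0.33 and -0.43. All 3 WT livers lay above all 3 HMGB2-KO livers, with a gap of 0.69 between the nearest livers of the groups. No other gene of the 9 had groups that did not overlap. Among all genes 9.67% were so separated in either direction, and 5.35% with the HMGB2-KO livers below. The WT mean was 0.42 ± 0.05 and the HMGB2-KO mean -0.47 ± 0.17 (SD, n = 3 per genotype). The log2 fold change was therefore -0.89 (standard error, SE, 0.13, 95% confidence interval -1.20 to -0.58). In limma, which moves each gene's own spread toward a value estimated from all genes, the unadjusted p was 0.000183. The limma adjusted p over all genes was 0.645, so Hmgb2 did not pass the adjusted threshold of 0.05. The exact permutation test gave its smallest possible two-sided p, 0.1. In bulk tissue, fewer cells that express a gene and less of its RNA per cell cannot be told apart, here or below. Probe positions relative to the removed part are not given either, so the signal left in HMGB2-KO livers cannot be assigned to intact or truncated transcripts.

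**Figure D1:**
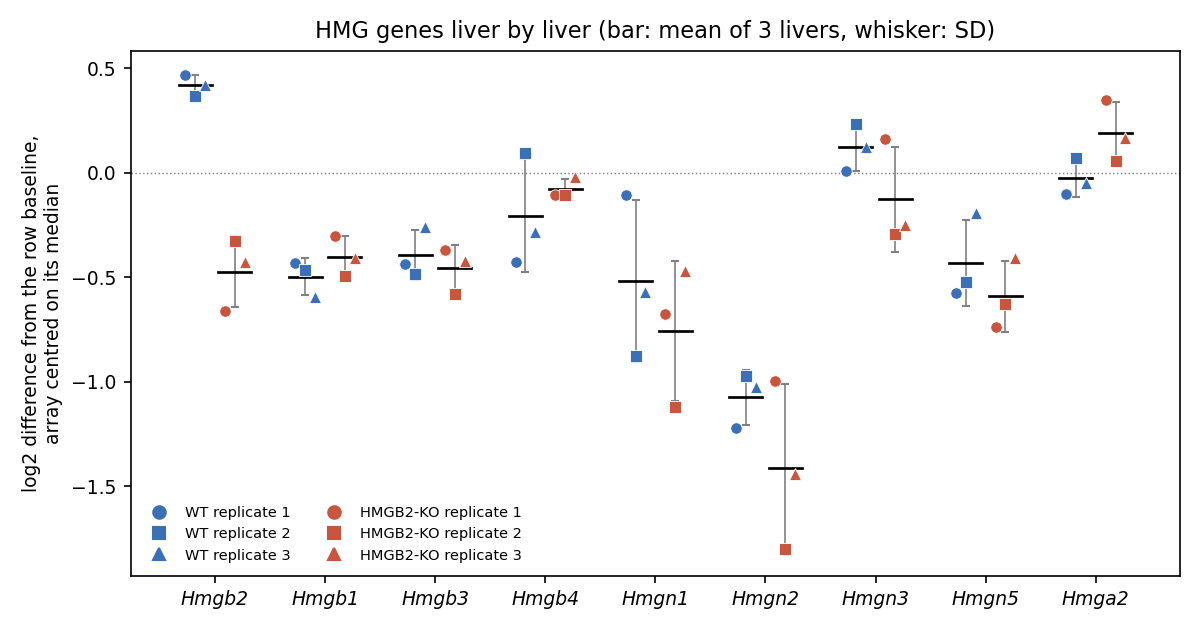
Log2 difference from the row baseline (y axis, arrays centred on their medians) of the 9 HMG genes (x axis) in each of the 6 livers, with blue points for WT, red points for HMGB2-KO, a black bar for the mean of 3 livers and a grey whisker for the SD. The 3 WT livers lie between 0.36 and 0.47 for Hmgb2 and the 3 HMGB2-KO livers between -0.66 and -0.33, and for each other gene the groups overlap.

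Across the 9 genes, 0 passed the adjusted threshold, against 0% of all 19505 genes, where the smallest adjusted p was 0.350. At an unadjusted p under 0.05 there was 1 of the 9, Hmgb2, against 3.68% of all genes. These were 717 genes, 207 higher and 510 lower in HMGB2-KO, or 15 and 931 with the values as deposited. The count of HMG genes was 3 without HMGB2-KO replicate 1, when Hmgn2 and Hmgn3 joined it. Of the 8 other genes, 5 had a mean below and 3 above that of WT, and their median log2 fold change was -0.11, beside -0.00 over all genes.

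Among the HMGB paralogs, Hmgb1 encodes the most abundant HMGB protein, which also acts outside cells as an alarm signal. Its WT livers were at -0.43, -0.46 and -0.60 and its HMGB2-KO livers at -0.30, -0.50 and -0.41. The highest liver was HMGB2-KO replicate 1 and the lowest WT replicate 3, and the groups overlapped. Its log2 fold change was 0.10 (SE 0.12, 95% confidence interval -0.19 to 0.38), or -0.02 with the values as deposited, which shift the median over all genes to -0.12. The interval of Hmgb1 thus leaves room for changes up to 0.38 in size, and lies wholly above that of Hmgb2. Hmgb1 varied little between livers of 1 genotype, with a pooled SD of 0.09, and only 8.29% of all genes had a smaller one. Mouse has processed copies of Hmgb1, and whether its probes also read these is not given. The row of one copy, Hmgb1-rs17, looked up after the values were seen, had a log2 fold change of -0.09 (SE 0.22).

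Hmgb3, best known from embryos and blood stem cells, was at -0.44, -0.49 and -0.26 in WT and at -0.37, -0.58 and -0.42 in HMGB2-KO. Both ends of its range, WT replicate 3 and HMGB2-KO replicate 2, were single livers, and the other 4 lay between -0.49 and -0.37. Its log2 fold change was -0.06 (SE 0.13, interval -0.36 to 0.23). It was -0.18 with the values as deposited, -0.16 with centring on plasma protein rows and 0.00 without WT replicate 3. Hmgb4, a gene of male germ cells, was at -0.43, 0.09 and -0.28 in WT and at -0.11, -0.11 and -0.02 in HMGB2-KO. Its 3 HMGB2-KO livers lay within the wide WT range, whose upper end was the array of WT replicate 2. Its log2 fold change was 0.13 (SE 0.16, interval -0.24 to 0.50), and it was 0.28 without that array and 0.01 with the values as deposited. The part of the higher receptor rows of WT replicate 2 in this result was not tested.

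The 4 HMGN genes all had a lower mean in HMGB2-KO than in WT, and none passed the test. With the values as deposited they were at -0.36 for Hmgn1, -0.46 for Hmgn2, -0.37 for Hmgn3 and -0.28 for Hmgn5. That setting lowers all log2 fold changes alike, with a median over all genes of -0.12 instead of -0.00. The larger size is thus not particular to the HMGN genes. Hmgn2 was at -1.22, -0.97 and -1.03 in WT and at -0.995, -1.80 and -1.44 in HMGB2-KO. HMGB2-KO replicate 1 lay inside the WT range, and the other HMGB2-KO livers lay below it. The log2 fold change of Hmgn2 was -0.34 (SE 0.21, interval -0.82 to 0.15, limma unadjusted p = 0.145 and adjusted p = 0.994). Leaving out HMGB2-KO replicate 1 gave -0.55, and leaving out HMGB2-KO replicate 2 gave -0.14. Hmgn3 was at 0.01, 0.23 and 0.12 in WT and at 0.16, -0.29 and -0.25 in HMGB2-KO. The 6 livers ranked in the same order for Hmgn3 as for Hmgn2, from WT replicate 2 at the top to HMGB2-KO replicate 2 at the bottom. Its log2 fold change was -0.25 (SE 0.16, interval -0.62 to 0.12), or -0.39 without HMGB2-KO replicate 1.

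Hmgn1, whose protein competes with linker histones for nucleosomes, was at -0.11, -0.88 and -0.57 in WT and at -0.68, -1.12 and -0.47 in HMGB2-KO. The livers of the 2 genotypes alternated, and both replicates numbered 2 were lowest in their group. The pooled SD of Hmgn1 within a genotype was 0.36, against a median of 0.19 over all genes, and 88.1% of genes varied less. The value of -0.24 for its log2 fold change (SE 0.24, interval -0.80 to 0.32) was -0.03 without WT replicate 1, the highest liver, and -0.42 without WT replicate 2. Hmgn5, an X-linked gene whose protein has a long acidic tail, was at -0.58, -0.52 and -0.19 in WT and at -0.74, -0.63 and -0.41 in HMGB2-KO. Its highest liver in each group was replicate 3, and the groups overlapped. The log2 fold change was -0.16 (SE 0.16, interval -0.52 to 0.20), with a range of -0.25 to -0.04 over the fits with 1 liver left out.

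Hmga2, an embryonic gene that is silent in most adult tissues, was at -0.10, 0.07 and -0.05 in WT and at 0.35, 0.06 and 0.17 in HMGB2-KO. Its groups met at WT replicate 2 and HMGB2-KO replicate 2, and HMGB2-KO replicate 1 was the highest liver. The log2 fold change was 0.22 (SE 0.13, interval -0.09 to 0.52, limma unadjusted p = 0.137), and 0.10 with the values as deposited. Hmga2 was the 1 gene of the 9 besides Hmgb1 and Hmgb4 with a higher mean in HMGB2-KO. HMGB2-KO replicate 2 was the lowest of the 6 livers for 4 of the 9 genes, namely Hmgb3, Hmgn1, Hmgn2 and Hmgn3, and the highest for 0.

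**Figure D2:**
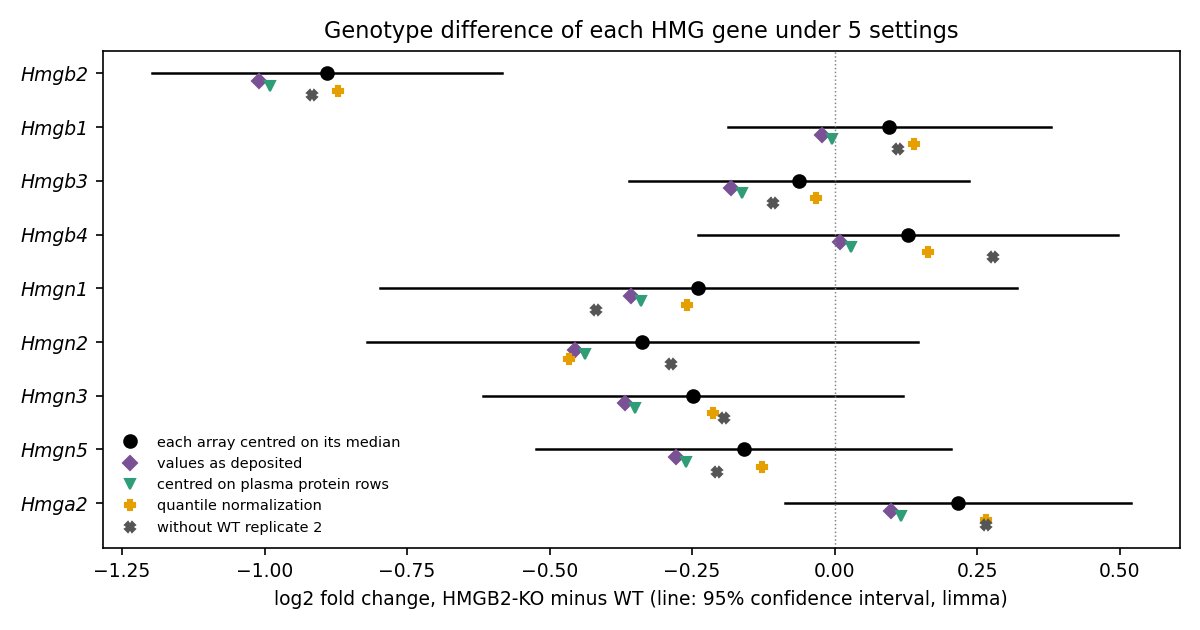
Log2 fold change of HMGB2-KO against WT (x axis) for each of the 9 genes (y axis), with the black point and line for the value and 95% confidence interval from arrays centred on their medians and coloured marks for 4 other settings. The interval of Hmgb2, -1.20 to -0.58, lies below 0, and the intervals of the other 8 genes include 0.

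The difference between Hmgb2 and each other gene within the same array does not depend on how arrays are scaled against each other, so it was compared between genotypes for 8 pairs. Since each gene has its own baseline, only the change of this difference between genotypes can be read, not its size in 1 liver. Hmgb2 minus Hmgb1 was 0.90, 0.83 and 1.02 in the WT livers and -0.36, 0.17 and -0.02 in the HMGB2-KO livers. The groups were apart, and the mean was lower by -0.99 on the log2 scale in HMGB2-KO than in WT. Hmgb2 minus Hmgb3 was 0.90, 0.85 and 0.68 in WT and -0.29, 0.25 and -0.01 in HMGB2-KO, a genotype difference of -0.83. The corresponding differences were -1.02 against Hmgb4, -0.64 against Hmgn3, -0.73 against Hmgn5 and -1.11 against Hmga2, again with no overlap of the groups. Each of these 6 pairs reached the smallest exact permutation p that 3 against 3 livers allow, 0.1 two-sided, or 0.133 after Benjamini-Hochberg adjustment over the 8 pairs. Because Hmgb2 itself separated the groups, the pairs are not independent of each other. The gap of 0.69 between the groups for Hmgb2 exceeds the range over livers of each of these 6 other genes, 0.29 to 0.54. Subtracting such a gene cannot make the groups overlap. The separation and the p of these 6 pairs were thus fixed by Hmgb2 and test nothing about the other genes.

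Against Hmgn1 and Hmgn2 the groups overlapped. Hmgb2 minus Hmgn1 was 0.57, 1.24 and 0.99 in WT and 0.02, 0.80 and 0.04 in HMGB2-KO (difference -0.65, exact permutation p = 0.2). For Hmgn2 the values were 1.69, 1.34 and 1.45 in WT and 0.33, 1.47 and 1.01 in HMGB2-KO (difference -0.55, exact permutation p = 0.3). HMGB2-KO replicate 2, where Hmgn1 and Hmgn2 were lowest, was the HMGB2-KO liver that reached into the WT range in both pairs. The difference against Hmgn2 was -0.82 without that liver and -0.25 without HMGB2-KO replicate 1.

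**Figure D3:**
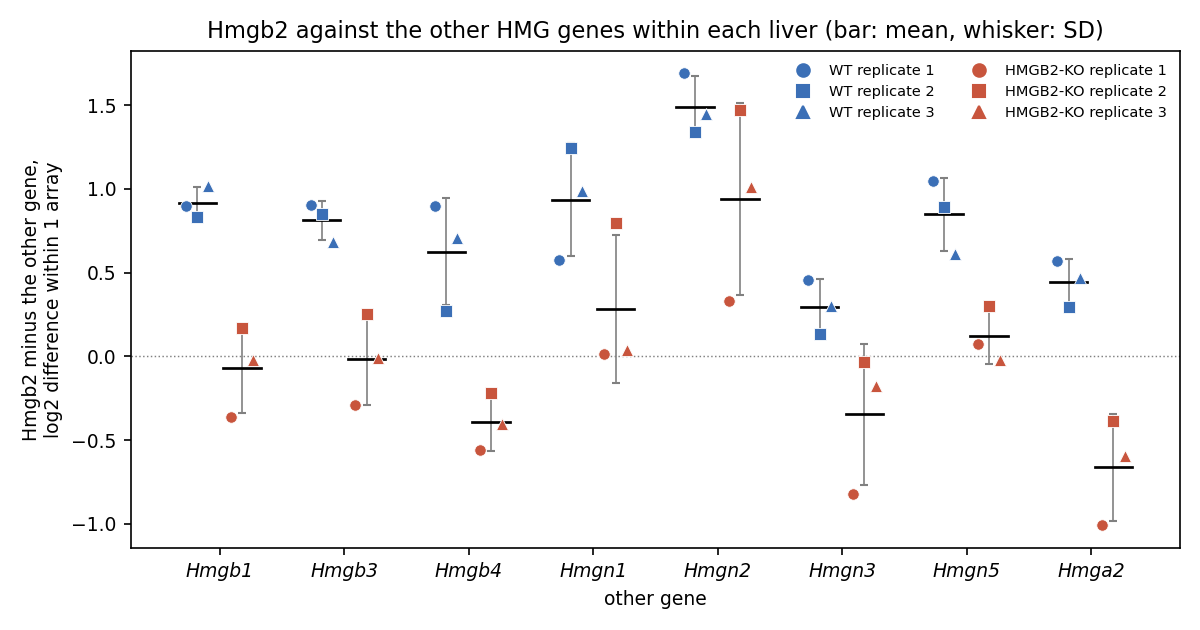
Hmgb2 minus each of the other 8 genes within 1 array (y axis, log2) in the 6 livers, with blue points for WT, red points for HMGB2-KO, a black bar for the mean of 3 livers and a grey whisker for the SD. The 2 groups are apart for 6 genes and overlap for Hmgn1 and Hmgn2.

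Liver by liver, the 9 genes had Pearson correlations of 0.72 to 0.94 between livers of the same genotype and of 0.40 to 0.85 between livers of different genotype. Without Hmgb2 these ranges were 0.61 to 0.95 and 0.70 to 0.92, over 8 genes. Over all genes they were 0.16 to 0.52 and 0.14 to 0.49. The correlations of the HMG genes are descriptions over few genes that share their row baselines. For 5 of the 9 genes, Hmgb1, Hmgb3, Hmgn1, Hmgn2 and Hmgn5, all 6 livers lay below the row baseline, as they did for 7.35% of all genes. Hmgb2 was above its baseline in the WT livers and below it in the HMGB2-KO livers. Before centring, its values in WT replicate 3 and HMGB2-KO replicate 2 were exactly opposite, so its baseline lies midway between those livers. The sides on which its livers lie thus follow from the separation of the groups and add nothing to it.

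The nearest genes on the chromosome of Hmgb2 were looked at because a knockout can carry flanking DNA or touch close genes. Of the 5 measured genes on each side in the RefSeq order, 6 had a higher and 4 a lower mean in HMGB2-KO, and 0 of the 10 had an unadjusted p under 0.05. Sap30, a subunit of a histone deacetylase complex and the nearest measured gene on one side, was at -0.03, -0.10 and -0.16 in WT and at 0.15, 0.11 and 0.03 in HMGB2-KO. It was the 1 neighbour whose groups did not overlap, beside 4.32% of all genes separated in the higher direction. Its log2 fold change was 0.19 (SE 0.11), or 0.07 with the values as deposited. Galnt7, a gene of mucin-type sugar chain synthesis and nearest on the other side, was at 0.00, -0.34 and 0.01 in WT and at -0.42, -0.31 and -0.43 in HMGB2-KO. WT replicate 2 lay among the HMGB2-KO livers. The log2 fold change of Galnt7 was -0.28 (SE 0.14), and without that array it was -0.40 with a limma unadjusted p of 0.0192. The remaining neighbours lay between -0.20 for BC030500 and 0.39 for Aadat, an aminotransferase whose livers overlapped. Leaving out WT replicate 3 put Aadat at 0.64 with a limma unadjusted p of 0.0275, and its lowest value with 1 liver left out was 0.26. BC030500 was at -0.055 without HMGB2-KO replicate 2.

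**Figure D4:**
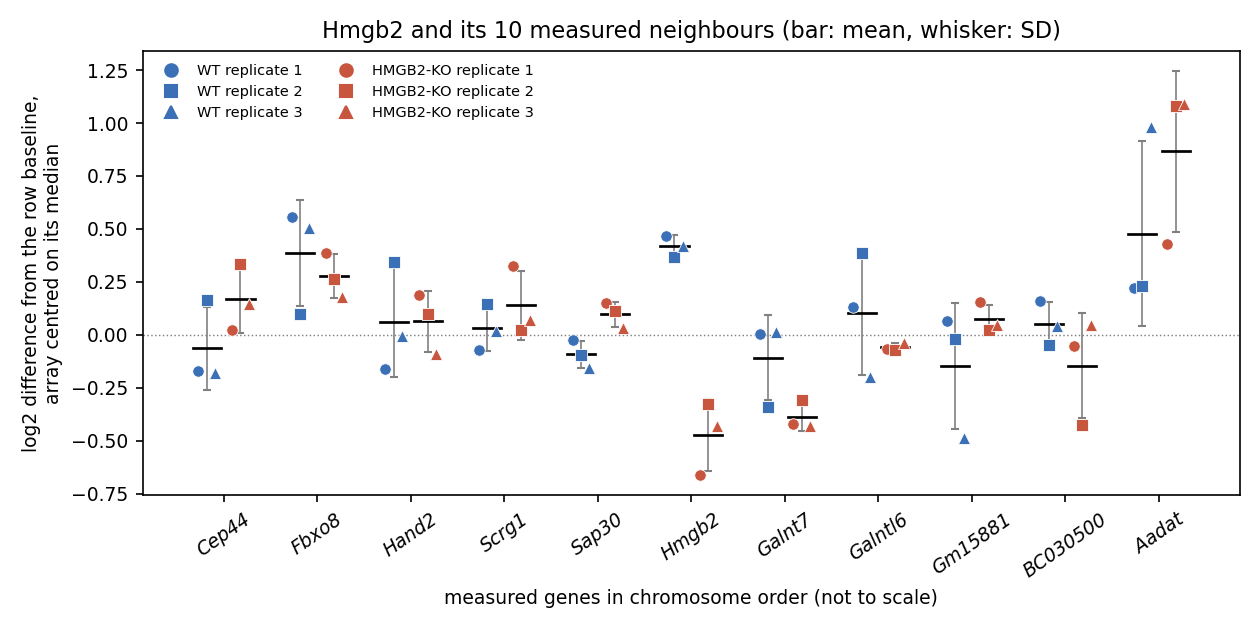
Log2 difference from the row baseline (y axis) of Hmgb2 and the 5 measured genes on each side of it, in chromosome order, in the 6 livers, with blue points for WT, red points for HMGB2-KO, a black bar for the mean and a grey whisker for the SD. Hmgb2 shows the widest gap between the groups, and Sap30 is the 1 neighbour whose groups do not overlap.

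Other genes of the same protein families and pathways were described through fixed lists, and 0 of their genes passed the adjusted threshold. Of 31 other genes with an HMG box, 28 were measured. Of these, 17 had a higher and 11 a lower mean in HMGB2-KO, with a median log2 fold change of 0.05 beside -0.00 over all genes. With the values as deposited these medians were -0.07 and -0.12. At an unadjusted p under 0.05, 2 of the 28 were higher and 0 lower, against 1.06% and 2.61% of all genes. They were Lef1, a factor of Wnt signalling, at 0.43 (SE 0.18), and Bbx at 0.29 (SE 0.12). Lef1 was at -0.27, -0.08 and -0.69 in WT and at 0.07, 0.19 and 0.00 in HMGB2-KO, and WT replicate 3 was far the lowest liver. Without WT replicate 3 its log2 fold change was 0.26. Next by p was Cic, a repressor of growth factor target genes, at 0.26 (SE 0.12), with groups that did not overlap. Of the 28 genes, 4 had all HMGB2-KO livers above the WT livers and 2 had all below. Among all genes these shares were 4.32% and 5.35%. The HMG-box genes Hmg20b (0.22, SE 0.18, or 0.03 without WT replicate 2), Hmgxb3 (-0.10, SE 0.11) and Hmgxb4 (0.09, SE 0.11) did not pass either.

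Linker histones and other nucleosome-binding genes had 10 higher and 8 lower of 18 measured, a median of 0.04 and 0 genes at an unadjusted p under 0.05. The smallest p belonged to Nucks1 (-0.24, SE 0.16), a chromatin protein of dividing cells, followed by the linker histone H1f3 (0.13, SE 0.11) and nucleolin, Ncl (0.17, SE 0.15). Leaving out 1 liver moved Nucks1 between -0.38 and -0.12 and Ncl between 0.06 and 0.24, and H1f3 was at 0.02 with the values as deposited. The list of the SET complex, of which the HMGB2 protein is a part, and of other partners of HMGB proteins had 15 of 20 measured genes higher, a median of 0.09, and 0 genes at an unadjusted p under 0.05. Its leading genes were the recombinase gene Rag2 (0.32, SE 0.15), the Ku subunit gene Xrcc5 (0.22, SE 0.11) and the retinoblastoma gene Rb1 (0.31, SE 0.18). Rb1 ranged from 0.16 without WT replicate 1 to 0.42 without HMGB2-KO replicate 1, and Rag2 and Xrcc5 were at 0.20 and 0.10 with the values as deposited. With the values as deposited the median of this list was -0.03, beside -0.12 over all genes.

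Receptors and adaptors for extracellular HMGB proteins, 21 of 21 measured, had 12 higher and 9 lower means, a median of 0.03 and 0 genes at an unadjusted p under 0.05. Havcr2, an immune checkpoint receptor that binds HMGB1, was at 0.54, 0.49 and 0.06 in WT and at 0.12, 0.10 and -0.73 in HMGB2-KO. Within each genotype replicate 3 was lowest, and the log2 fold change of -0.53 (SE 0.26) was -0.25 without HMGB2-KO replicate 3. Tlr3, a sensor of viral RNA, was at 0.36 (SE 0.20) and its adaptor gene Ticam1 at 0.27 (SE 0.16). With 1 liver left out they ranged from 0.25 to 0.54 and from 0.16 to 0.41.

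Genes of proliferating cells, among which Hmgb2 is usually counted, were measured for 38 of 40. In HMGB2-KO 23 had a lower and 15 a higher mean, with a median of -0.04 and 0 genes at an unadjusted p under 0.05. That median was -0.16 with the values as deposited, -0.17 with quantile normalization and -0.15 with centring on plasma protein rows, and it was 0.05 without WT replicate 3. Over all genes the median was -0.12 with the values as deposited, 0.02 with quantile normalization and -0.10 with plasma protein centring. With arrays centred on their medians it was -0.00. The replication and mitosis genes Cenpf (0.25, SE 0.14), Mki67 (-0.31, SE 0.18) and Top2a (-0.22, SE 0.13) had the smallest p. Mki67 was at -2.68, -2.71 and -2.09 in WT and at -2.83, -2.84 and -2.74 in HMGB2-KO. The HMGB2-KO livers all lay below the WT livers, as they did for 2 of the 38 genes and for 5.35% of all genes. For Mki67, WT replicate 3 was well above the other 5 livers. For Mki67 the log2 fold change was -0.11 without WT replicate 3 and -1.48 with quantile normalization. All 6 livers lay below the row baseline for 32 of the 38 genes.

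Markers of liver cell types were set beside the HMG genes, since fewer or more cells of a type would move a gene it expresses. Hepatocyte markers had 9 of 10 genes higher in HMGB2-KO, with a median log2 fold change of 0.08. Their median by liver was 0.00, -0.21 and 0.04 in WT and 0.04, 0.02 and 0.03 in HMGB2-KO. The value of WT replicate 2 holds the subtraction of that array's median, 0.26 before centring. Kupffer cell and macrophage markers had 9 of 9 higher (median 0.18), endothelial markers 6 of 8 (0.15) and lymphocyte markers 8 of 9 (0.11), while 4 of 6 cholangiocyte markers were lower (-0.25). Stellate cell markers had 5 of 8 higher (0.02), and 4 of 7 neutrophil (-0.10) and 2 of 3 erythroid markers (-0.06) were lower. None of these passed the adjusted threshold. At an unadjusted p under 0.05, 2 of 8 endothelial markers were higher and 1 of 6 cholangiocyte markers was lower. Among all genes, 1.06% were higher and 2.61% lower at that p, and the median log2 fold change was -0.00. The median by liver of the macrophage markers was 0.27 to 0.46 in WT and 0.41 to 0.73 in HMGB2-KO, and that of the endothelial markers 0.65 to 0.72 and 0.70 to 0.89. These medians depended on the scaling and on single livers. With the values as deposited they were -0.04 for hepatocyte, 0.07 for macrophage, 0.03 for endothelial, -0.01 for lymphocyte, -0.37 for cholangiocyte, -0.09 for stellate, -0.22 for neutrophil and -0.18 for erythroid markers. The median over all genes was then -0.12. With 1 liver left out, the lymphocyte median ran from -0.04 to 0.22, the cholangiocyte median from -0.24 to -0.15, the stellate median from -0.07 to 0.10 and the erythroid median from -0.21 to 0.09. Without WT replicate 2 the hepatocyte median was 0.00 and the neutrophil median -0.02. The part of these markers in the value of any HMG gene was not tested.

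Over the 6 livers, the genes whose values were most like those of Hmgb2 were ranked by Pearson correlation among 8683 genes with a range of at least 0.5. The highest were Spa17 (0.991), Ndst3 (0.985), Sncb (0.981), the chemokine receptor gene Cxcr6 (0.977) and the kinase gene Btk (0.977). Ndst3, an enzyme gene of heparan sulfate synthesis, was at 0.33, 0.39 and 0.21 in WT and at -0.81, -0.37 and -0.48 in HMGB2-KO. Its livers thus split by genotype as those of Hmgb2 did, with HMGB2-KO replicate 1 lowest in both. The most opposed were Pld4 (-0.968), Chn2 (-0.960) and Tnip1 (-0.956), an inhibitor of NF-kB signalling. Of the other HMG genes, Hmga2 had a correlation of -0.87 and Hmgb1 one of -0.65 with Hmgb2, and the other 6 lay between -0.42 and 0.51. All these values come from the same 6 arrays and follow the genotype split of Hmgb2, and they are a description of likeness with no test.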

How the data were processed

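Log2 values of 6 livers, 1 array each, were read from 1 table of 22206 rows that the authors deposited. The values run from -8.60 to 6.93, and the sources used here give neither the base of the logarithm, taken as log2, nor the summarization of probes, the normalization or the row baseline. Per the labels' protocols, RNA was extracted with Trizol and biotin-labelled cDNA was prepared in duplicate, and how duplicates were joined is not given. Whether the livers differ in litter or day is not given, so p-values measure the spread between these livers.

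Each array was centred on its median, since array medians differed. Rows were named through the platform annotation, with 19572 rows of 1 symbol, 0 of several and 2634 unnamed. Where a gene had several rows (55 genes, none of them an HMG gene above), the row with the highest mean was kept. Old list symbols were updated through the RefSeq gene table of GRCm38.p6, whose order gave the neighbours. All 19505 genes were fitted by lmFit and eBayes of limma 3.58.1 (R 4.3.3), with genotype alone in the model. Its two-sided p-values were adjusted by Benjamini and Hochberg over all genes, at a threshold of 0.05. Single values were also compared with the exact permutation test of SciPy 1.17.1, whose smallest p here is 0.1. The limma fit was tested on simulated data with known changes. How often it would call a change of the size seen for Hmgb2 is not reported here. The members, lists and tests were chosen with earlier results of these data known. The 9 HMG genes were always named, with the 3 genes of smallest p in each list other than the marker lists, the neighbours, further HMG-named genes that were measured, and the 5 genes most like and 3 most unlike Hmgb2. In that ranking, predicted genes, receptor families, small RNAs and receptor segments were left out. The alternatives were the values as deposited, quantile normalization, centring on plasma protein rows, the mean of a gene's rows, array weights, no moderation, each liver left out, the replicate number as a block, animals 38 to 41 alone and a fit without receptor genes. Titles give both genotypes the replicate numbers 1 to 3. All 6 columns of values were used. Members' protein sequences were not used here.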

Additional observations from a re-analysis of the deposited data

How the results depend on the processing

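The log2 fold change of Hmgb2 kept its sign in all 15 alternatives, from -1.01 to -0.80, and did not pass the adjusted threshold in any, with limma adjusted p between 0.484 and 0.983. Its range with 1 liver left out was -0.96 to -0.80. Among animals 38 to 41, without replicate 3 of either genotype, the log2 fold change of Hmgb2 was -0.91. The count of HMG genes past that threshold was 0 throughout. With 1 liver left out, 1 to 3 HMG genes had an unadjusted p under 0.05. Hmgb1 changed sign with the values as deposited (-0.023) and with centring on plasma protein rows (-0.0045), and Hmgb3 ranged from -0.11 to 0.0039 with 1 liver left out. The other 6 HMG genes and the 8 within-liver differences kept their sign in every alternative run for them.

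The values as deposited and centring on plasma protein rows lower all log2 fold changes alike, and the median over all genes was then -0.12 and -0.10. The list medians were -0.071 and -0.053 for other HMG-box genes, -0.077 and -0.059 for linker histones and nucleosome-binding genes, -0.033 and -0.014 for the SET complex and partners, -0.084 and -0.066 for HMGB receptors and adaptors, and -0.062 and -0.043 for the neighbours. The proliferation median lay between -0.167 and 0.020 with all livers or within animals 38 to 41, and between -0.10 and 0.047 with 1 liver left out. With quantile normalization the neighbours' median was 0.12. Leaving out 1 liver gave ranges of -0.021 to 0.16 for the neighbours, -0.047 to 0.073 for receptors and adaptors and 0.037 to 0.16 for the SET complex. The count of neighbours with an unadjusted p under 0.05 was 1 with the values as deposited, with plasma protein centring, with array weights (Galnt7 in these) and with no moderation (Sap30), and 0 to 1 with 1 liver left out (Galnt7 without WT replicate 2, Aadat without WT replicate 3). Hand2, near 0 at 0.01, was at -0.11 and -0.095 under the 2 scalings and between -0.10 and 0.15 with 1 liver left out. Scrg1 was at -0.0099 with the values as deposited. The cause of these changes was not tested beyond the scaling itself.

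Whether replicate numbers pair the livers is not given. The animal numbers of the WT and HMGB2-KO livers were consecutive within each replicate number. They were 38 and 39 for replicate 1, 40 and 41 for replicate 2, and 31 and 32 for replicate 3. The deviations of same-numbered livers from their genotype means correlated at 0.04, 0.13 and 0.29 for replicates 1 to 3. These values are all above 0 and largest for the livers numbered 3. The values of same-numbered livers over all genes correlated at 0.47, 0.35 and 0.49. WT replicate 3 had 0.16 to 0.34 with the livers not numbered 3, while WT replicate 1 had 0.47 with HMGB2-KO replicate 2 as well. The correlations and animal numbers do not settle whether the livers are paired. With the replicate block Hmgb2 stayed at -0.89 (SE 0.14, limma adjusted p = 0.922), and 0 HMG genes passed.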
